A study of Rattus norvegicus with 2 samples.

Results

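The cell cycle and replication genes of this account are 87 genes of the rat array, chosen by name alone. The members are every gene whose symbol on the array begins like a cyclin of the A, B, D, E or G type, a numbered cyclin-dependent kinase (CDK), a CDK inhibitor, a cell division cycle (Cdc) gene, a minichromosome maintenance (Mcm) gene, an Aurora kinase or a Bub checkpoint gene, with Mki67, Top2a and Pcna added. They were 87 of 18393 named genes on the array, read by 111 probes in 192 spots. The name rule also takes in genes that do not run the cell cycle: 12 CDKs of transcription, neurons and other tasks, 11 genes of the small GTPase Cdc42 and its partners, and 11 other namesakes, such as the chaperone partner Cdc37.

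The tissue was the nucleus tractus solitarius (NTS), the site in the dorsal medulla where visceral sensory nerves, those from baroreceptors included, first synapse. The dissected piece reached 1.0 mm to the rostral side of the calamus scriptorius and 0.5 mm to the caudal side. It came from female and male Wistar Kyoto rats, a normotensive inbred strain, all 9 weeks old. RNA of 5 females made 1 pool and RNA of 5 males made the other, each rat giving 100 ng, and 1 one-colour Agilent array was used per pool. With 1 array per sex there is no replicate check, no test was made and no p-value is given. In pooled whole tissue, fewer cells of a type and less RNA per cell cannot be told apart.

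Cells divide by passing through DNA synthesis (S phase) and mitosis. D cyclins with Cdk4 and Cdk6 open the way into S phase, E and A cyclins with Cdk2 drive DNA synthesis, and B cyclins with Cdk1 drive mitosis. CDK inhibitors of the CIP/KIP and INK4 families hold the kinases in check. In the adult brain most neurons have left the cycle for good, while oligodendrocyte precursors, vascular cells and microglia can still divide, and several members also work in cells that no longer divide.

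Relative to each array's 75th percentile, the cell cycle and replication genes had nearly the same signal in both pools. Of the 87 genes, 85 were well above background on both arrays, by the scanner software's own call, and 0 were so on 1 array alone. Among all named genes the share well above background on both arrays was 83.1%. The 85 genes had a median difference of -0.0094, female minus male on the log2 scale, against -0.014 over all 15277 genes measured on both arrays. Their quartiles were -0.11 and 0.037, and the whole range ran from -0.68 to 0.38. Of these genes 39 had the higher signal in females, against 46 in males. Over all 15277 genes 6984 were higher in females, against 8293 in males. Counts of direction given below for smaller sets of genes have this same background, and no lean is read from them. The size and sign of the median difference depend on the scaling. With arrays scaled to equal medians it was 0.025 for the members and 0.021 for all genes. With arrays scaled on their spike-in probes it was 0.664 for the members and 0.66 for all genes. The members moved with all genes, so a median near 0 holds only relative to the scaling used.

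No member reached a 2-fold difference: 0 of 85 were that much higher in females and 0 that much higher in males, while over all genes 0.111% and 0.412% were. At 1.5-fold, 0 members were higher in the female pool, against 0.91% of all genes, and 1 was higher in the male pool, against 1.55% of all genes. That gene was the D cyclin Ccnd2. With 85 genes and shares this low, counts of 0 and 1 lie near the background and say nothing particular to these genes.

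**Figure D1:**
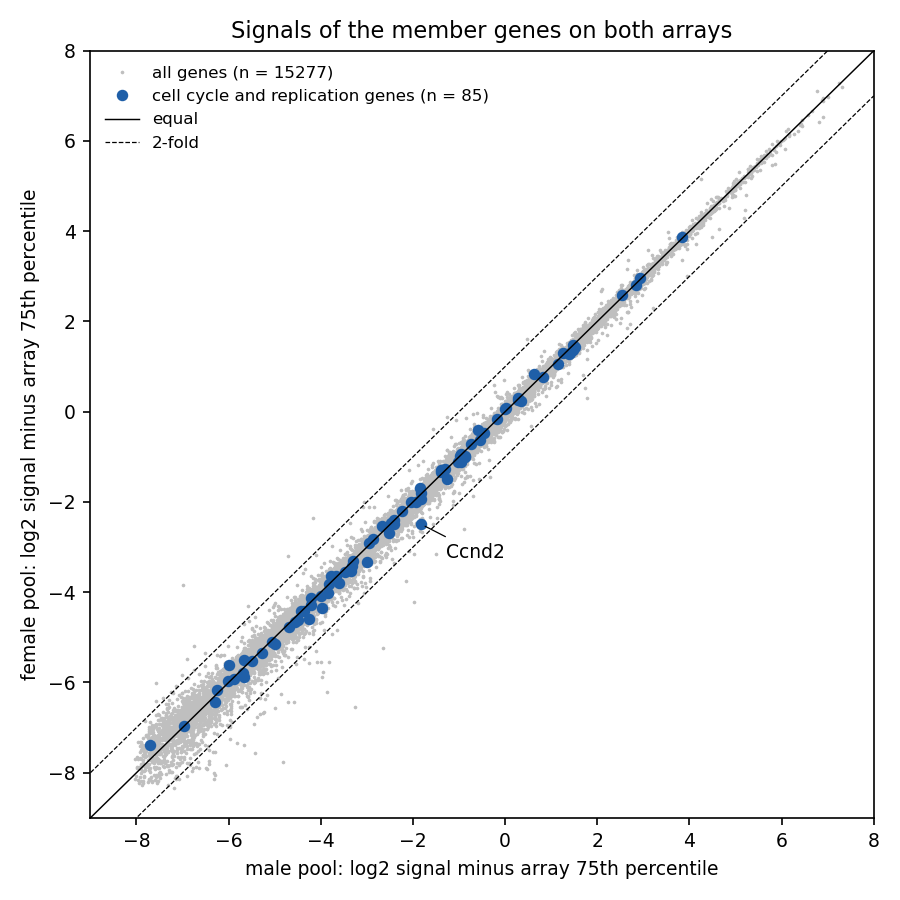
Log2 processed signal minus the array's 75th percentile in the female pool (vertical axis) and the male pool (horizontal axis). Grey points are all 15277 genes, blue points are the 85 cell cycle and replication genes well above background on both arrays, and dashed lines mark 2-fold. All blue points lie between the dashed lines, and Ccnd2 lies farthest from the line of equality.

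The only error these arrays give is the spread between spots of one probe, a technical error that holds nothing of the variation among animals or of the labelling. A log2 difference had a spot SD of 0.33 for the dimmest probes, 0.15 for dim ones, 0.090 for medium ones and 0.069 for bright ones, from probes spotted up to 10 times. This is the SD of a single spot, and it was used for every gene, also for values averaged over spots or probes. Its class was set by the level of the gene, from which a single probe can differ. Of the 85 genes, 50 lay within 1 spot SD of 0, a share of 58.8% against 52.2% of all genes. Cdk5 is counted among the 50, although all 10 of its spots were lower in the female pool. Beyond 2 spot SDs were 13 genes, a share of 15.3%, where 19.2% of all genes were. Among them 4 were higher in the female pool, where 7.1% of all genes were, and 9 in the male pool, where 12.1% of all genes were. On the female side these were Top2a, Cdc26, Cdkn1b and Cdkn2aipnl, and on the male side Ccnd2, Cdc7, Cdc14a, Cdc14b, Cdc25b, Cdc42ep4, Cdk14, Cdk19 and Cdkn1c. The members thus passed 2 spot SDs no more often than the array as a whole, and most rest on little: 60 of the 87 genes have a single spot. Probes also differed within genes named here. In Cdc42ep4, Cdk19 and Cdkn1c 1 of 2 probes gave 0.0013, -0.037 and -0.067, and the other gave -0.30, -0.32 and -0.24.

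Signals are processed signals in arbitrary units. They depend on each probe's own hybridisation, so no gene's signal is read as higher or lower than another gene's. Each difference is taken within a probe between the pools, and a gene with several probes has the median of its probes' differences as its value. Brightness serves only to pick a spot SD and to choose bright and dim members to name, and sums of signal over marker lists are led by their brightest probes.

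**Figure D2:**
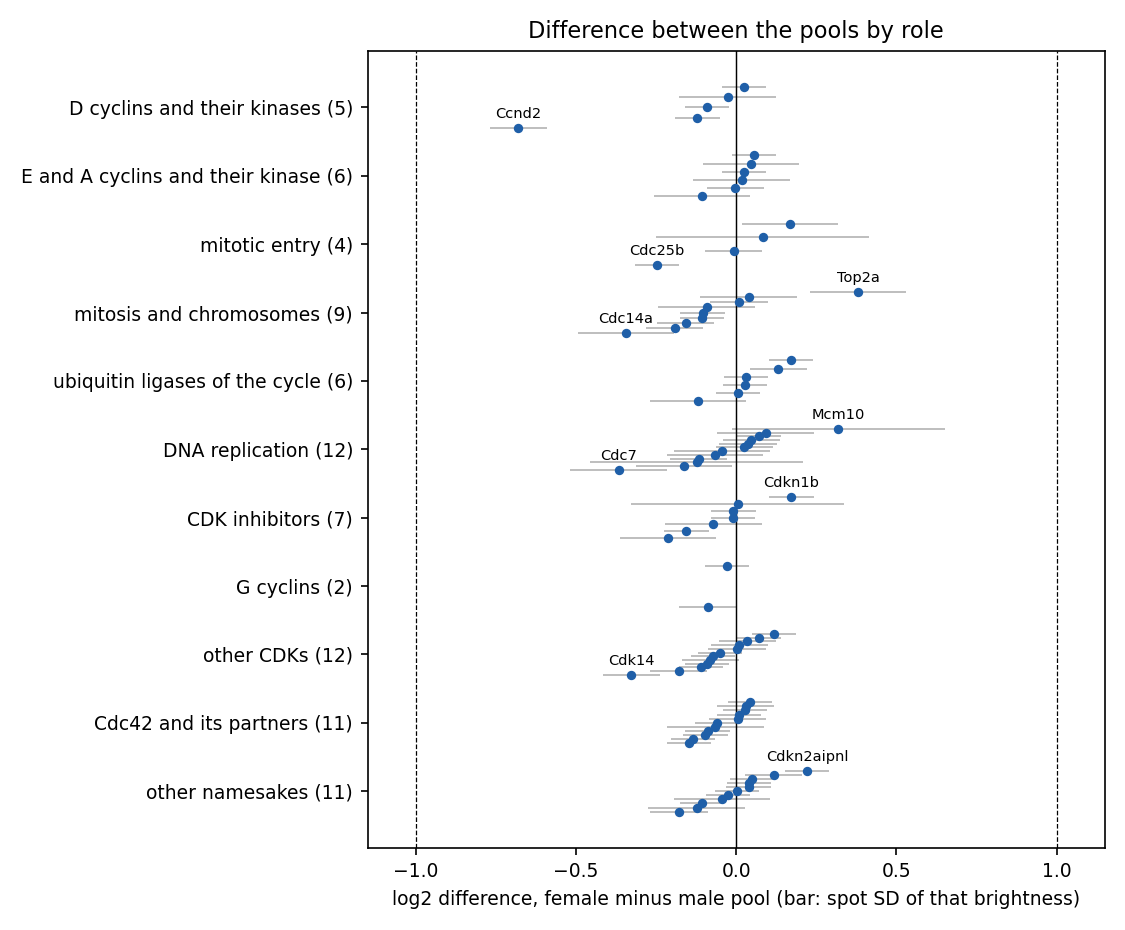
Log2 difference, female minus male pool (horizontal axis), of the 85 genes, grouped by role with the number of genes in brackets. Bars are the spot SD at that brightness, the vertical position within a role has no meaning, and dashed lines mark 2-fold. Of the 85 bars 35 do not reach 0, and Ccnd2 at -0.68 and Top2a at 0.38 are the outermost points on either side.

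The D cyclins and their kinases, which act at the entry into S phase, were the only role that held a gene past 1.5-fold. Ccnd2, a D cyclin known for its part in the division of neural progenitors, had a signal of 599 in females against 977 in males. The difference came to -0.68, a 1.60-fold lower signal in the female pool, beside a spot SD of 0.090. It rests on 1 probe and 1 spot. With normexp, another background correction, it was -0.55. With the arrays scaled on their spike-in probes, which moved the median of all genes to 0.66, Ccnd2 stood at -0.0066, so that every direction given here is relative to the 75th percentile of the array. This 60-base probe begins at base 561 of the transcript NM_022267. On the rat build rn4, as the array files give it, the probe lies on the minus strand of chromosome 4 between 163535032 and 163541856, a span far longer than the probe, so its matches are in separate stretches. The sequence is shown because the largest difference depends on it, with its first 30 bases from the 5′ end in the line that follows.
Ccnd2 probe: gctaccgacttcaagtttgccatgtacccg

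The surroundings of the Ccnd2 spot were looked at because the value rests on that spot alone. The 338 other spots within 10 rows and columns that were well above background had a median difference of -0.037, with quartiles of -0.14 and 0.078. Of these neighbours, 6 were as low as Ccnd2 or lower. The scanner software's own error estimate was 59.97 for the female signal, against 97.75 for the male one. Over the array, 160 of 15277 genes had a difference as low or lower, a share of 1.05%, and among the 3489 genes of the same brightness class 25 did, or 0.717%.

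The other D cyclins had smaller differences. Ccnd1 had a signal of 879.9 in females against 974 in males, a difference of -0.12. Ccnd3 had 1572 in females against 1705 in males, a difference of -0.091. Both were lower in the female pool, by less than 2 times the spot SD of 0.069. Cdk4, the kinase partner of all D cyclins, had 4162 in females against 4165 in males, a difference of 0.025. Cdk6, its close relative, had 73.3 in females against 76.0 in males, a difference of -0.027.

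The E and A cyclins with their kinase Cdk2, which drive DNA synthesis, all lay within 1 spot SD of 0. Ccne1 had a signal of 1341 in females against 1313 in males, a difference of 0.056. Ccne2 had 54.2 in females against 53.4 in males, a difference of 0.046. Ccna1, a cyclin best known from germ cells, had 198 in females against 217 in males, a difference of -0.11 with a spot SD of 0.15. The probes of Ccna2, the A cyclin of dividing body cells, gave -0.031 and 0.026. Cdk2 was read by 10 spots and differed by 0.017 ± 0.075 (SD over 10 spots), with 4 of 10 spots higher in the female pool. Cdc25a, a phosphatase that activates Cdk2, had 2074 in females against 2075 in males, a difference of 0.025.

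Of the genes of mitotic entry, Cdk1 and the B cyclins lay within 2 spot SDs of 0, and the phosphatase gene Cdc25b was lower in the female pool. Cdk1, the mitotic kinase, had a lowest, median and highest spot signal of 239, 259 and 274 in the female pool, against 242, 266 and 284 in the male pool. The ranges of the spots overlapped, and the difference was -0.0080 ± 0.048 (SD over 10 spots). Ccnb1 had a signal of 74.9 in females against 67.9 in males, a difference of 0.17 with a spot SD of 0.15. Ccnb2 had 46.9 in females against 45.1 in males, a difference of 0.082 with a spot SD of 0.33.

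Cdc25b, which activates Cdk1, was read by 2 probes. One had 2616 in females against 3103 in males, a difference of -0.22, and the other 546 in females against 672 in males, a difference of -0.27. Both probes were lower in the female pool by more than 2 spot SDs. Its relative Cdc25c was called well above background on neither array, with a signal of 6.54 in females against 9.67 in males, and no fold is given for it.

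Genes of mitosis and chromosome handling gave small differences in both directions. The proliferation marker Mki67, a coat protein of mitotic chromosomes, has a probe with 10 spots. Its lowest, median and highest spot signals were 483, 497 and 514 in the female pool, against 450.2, 472 and 497 in the male pool. This probe was higher in the female pool at 10 of 10 spots, by 0.099 ± 0.037 (SD over 10 spots). The other probes of Mki67, with 1 spot each, gave -0.090, from 123 in females against 133 in males, and 0.039, from 88.1 in females against 87.3 in males. The probes of this gene therefore did not agree in sign, and the first 30 bases of each are given to show that they read separate stretches. By the array files they lie on the minus strand of rn4 chromosome 1, from 195310145 to 195310204, from 195310301 to 195310360 and from 195313148 to 195313207.
Mki67 probe with 10 spots: ctgtgcttaaggaaggaagctttgagcttt
Mki67 probe at -0.090: gacattgtatacaccaagatattaagaaca
Mki67 probe at 0.039: agaggacagactgagattccccagtctcat

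Top2a, the topoisomerase that untangles replicated DNA, had the largest difference on the female side. Its signal was 69.0 in females against 53.9 in males, a difference of 0.38 on 1 spot with a spot SD of 0.15. With normexp it was 0.18. Its spot lies within the 4 bands of array rows, out of 20, where dim spots 2-fold brighter on the male array were most frequent. So do single spots of 5 of the 10 members with the largest differences in all: Top2a, Cdc14a, Cdc14b, Cdkn2aipnl and Cdkn2c. Top2a and Cdkn2aipnl were higher in the female pool, and Cdc14a, Cdc14b and Cdkn2c were lower there. The part of the bands in these differences was not tested. Aurka, a kinase of the spindle poles, had 643 in females against 651 in males, a difference of 0.0088. Aurkb, the kinase of the chromosomal passenger complex, had 524 in females against 596 in males, a difference of -0.16.

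The Bub genes serve the spindle checkpoint, which delays chromosome separation. Bub1 had 1 probe well above background, with 134 in females against 146 in males, a difference of -0.092. Its second probe was called well above background on neither array. Bub1b was called well above background on neither array, with signals of 6.63 in females against 10.4 in males. Both probes of Bub3 were lower in the female pool, at -0.12 and -0.092.

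The phosphatase genes Cdc14a and Cdc14b, taken as genes, were lower in the female pool by just over 2 spot SDs. For Cdc14a this sets the median of its probes, -0.34, against the spot SD of 0.15 for dim genes. The first probe had 37.8 in females against 52.4 in males, a difference of -0.44. This probe falls in the dimmest class, with a spot SD of 0.33, and so lay within 2 spot SDs of 0. The second probe had 516 in females against 623 in males, a difference of -0.24, with the spot SD of 0.090 of the medium class. Cdc14b had 243 in females against 282 in males, a difference of -0.19.

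The ubiquitin ligase genes, counted together with the ubiquitin-conjugating enzyme gene Cdc34, act in marking cyclins and other cycle proteins for breakdown. Their median was 0.029, with 5 of 6 higher in the female pool. Cdc20, the activator of the anaphase-promoting complex, had 580.5 in females against 539 in males, a difference of 0.13 with a spot SD of 0.090. Cdc26, a subunit of that complex, had 1053 in females against 951 in males. The difference was 0.17, past 2 spot SDs. The subunit genes Cdc16, Cdc23 and Cdc27 gave 0.0047, 0.028 and -0.12.

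Of 12 genes of DNA replication, 6 were higher in females, against 6 in the male pool, with a median of -0.0094. The Mcm2 to Mcm7 proteins form the helicase that is loaded onto replication origins. The probes of Mcm2 gave 0.0043 and -0.14, those of Mcm3 0.11 and -0.35, and those of Mcm4 0.011 and 0.064. Mcm5 had 95.3 in females against 109 in males, a difference of -0.16 with a spot SD of 0.15. Mcm6 had 194 in females against 185 in males, a difference of 0.092 with the same spot SD. Mcm7 had 732.7 in females against 732.9 in males, a difference of 0.025. The Mcm genes thus lay on both sides of 0.

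Pcna, the sliding clamp of DNA polymerase, had 3593 in females against 3479 in males, a difference of 0.072 with a spot SD of 0.069. Cdc7, the kinase that fires replication origins, was the replication gene farthest from 0 in spot SDs. It had 166 in females against 218 in males, a difference of -0.37 beside a spot SD of 0.15. Mcm10, which helps to start the helicase, had 20.3 in females against 16.6 in males. Its difference of 0.32 was within the spot SD of 0.33, and the second probe of the gene was called well above background on neither array. The loading factor Cdc6 gave -0.12, also within the spot SD of 0.33, and the helicase subunit Cdc45 gave 0.047.

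Among the CDK inhibitors, Cdkn1b had the probe with 10 spots. Cdkn1b encodes p27, an inhibitor of the CIP/KIP family that keeps resting cells out of the cycle. Its lowest, median and highest spot signals were 2434, 2533 and 2746 in the female pool, against 2117, 2295 and 2495 in the male pool. At each of the 10 spots the female pool was higher, by 0.17 ± 0.026 (SD over 10 spots), a 1.13-fold difference. The ranges of spot signals overlapped between the arrays. The Cdkn1b probe lies on the plus strand of rn4 chromosome 4 from 171846350 to 171846409.

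The other CIP/KIP inhibitors gave smaller or negative values. The probes of Cdkn1a, which encodes p21, a target of p53, gave -0.052 and 0.034. Those of Cdkn1c, which encodes p57, gave -0.24, from 904 in females against 1090.3 in males, and -0.067, from 2722 in females against 2902 in males. Of the INK4 inhibitors, which act on Cdk4 and Cdk6, Cdkn2a had 82.8 in females against 88.6 in males, a difference of -0.071 with a spot SD of 0.15. Cdkn2b gave 0.10 ± 0.23 (SD over 9 spots) with its repeated probe and -0.093 with the other. Cdkn2c had 57.2 in females against 67.6 in males, a difference of -0.21 with a spot SD of 0.15. Cdkn2d had 1716 in females against 1757 in males, a difference of -0.0085.

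**Figure D3:**
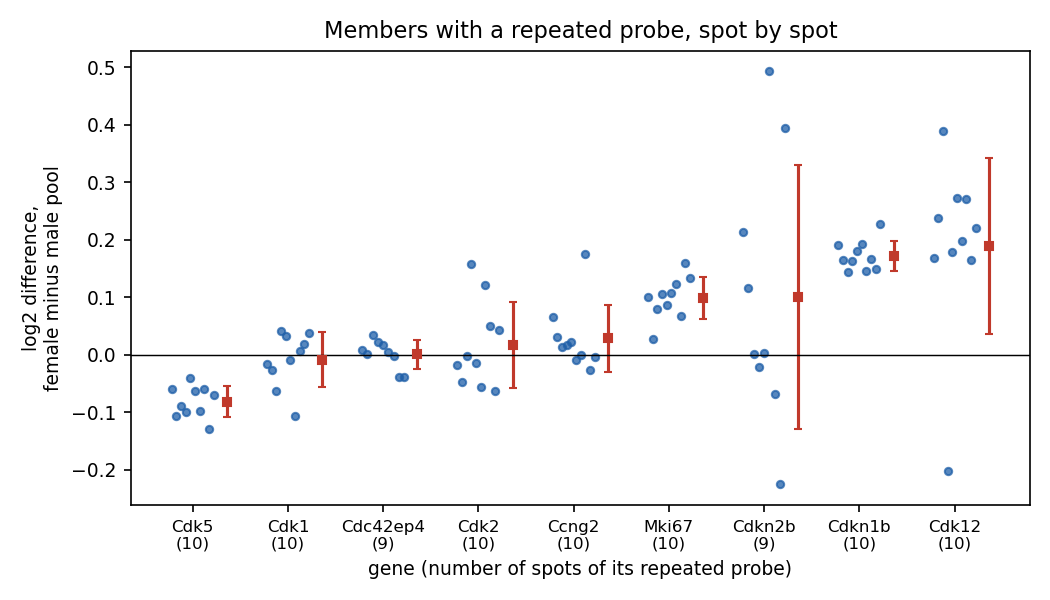
Log2 difference, female minus male pool (vertical axis), of each spot of the 9 members with a repeated probe. Red squares and bars are the mean and SD over spots of the same 2 arrays, which are not biological replicates. All spots of Cdkn1b and Mki67 lie above 0 and all spots of Cdk5 below 0, while the spots of Cdk1, Cdk2, Ccng2 and Cdc42ep4 lie on both sides.

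The 12 CDKs outside the core cycle had a median of -0.061, with 5 genes higher in females, against 7 in the male pool. Cdk5, the kinase of neurons after their last division, was read by 10 spots and was lower in the female pool at each of them. Its lowest, median and highest spot signals were 579.7, 600.5 and 625 in the female pool, against 615, 652 and 661 in the male pool. The difference was -0.081 ± 0.027 (SD over 10 spots), and the spot ranges overlapped only slightly. Cdk14, a kinase that takes part in Wnt signalling, had 338 in females against 431 in males, a difference of -0.33 beside a spot SD of 0.090. The probes of Cdk12, a kinase of transcription, disagreed: 0.19 ± 0.15 (SD over 10 spots) for the repeated one and -0.19 for the other. Those of Cdk19, a kinase of the Mediator complex, gave -0.037 and -0.32. Of the G cyclins, which respond to damage and growth arrest, Ccng1 gave -0.028. The probes of Ccng2 disagreed in sign, with 0.029 ± 0.058 (SD over 10 spots) for the repeated one, higher in the female pool at 6 of 10 spots, and -0.21 for the other.

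Cdc42 and its partners, which shape the actin cytoskeleton, had a median of -0.058 and a range from -0.15 to 0.043. Cdc42 itself, among the 5 members with the highest log2 signal averaged over probes, had 49566 in females against 48975 in males, a difference of 0.043. The probes of Cdc42ep4, an effector of Cdc42, gave 0.0013 ± 0.025 (SD over 9 spots) and -0.30. Of the other namesakes, Cdkn2aipnl had 6059 in females against 5291 in males, a difference of 0.22 beside a spot SD of 0.069. The remaining namesakes ran from -0.18 to 0.12. The other 4 of these members also lay near 0. Cdc37 gave -0.036 and -0.016 with its probes, Cdc34, a ubiquitin-conjugating enzyme, gave 0.030, Aurkaip1 0.051 and the kinase gene Cdk10 -0.072.

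Genes with several probes give a second look at each difference. Of 21 members with more than 1 probe well above background on both arrays, the probes had the same sign in 10 and opposite signs in 11. The probes of a gene lay a median of 0.19 apart and at most 0.46 apart, in Mcm3. In 8 of the 10 genes with one sign all probes were lower in the female pool: Bub3, Cdc14a, Cdc25b, Cdc37, Cdc42bpg, Cdk16, Cdk19 and Cdkn1c. In the other two, Cdk17 and Mcm4, all probes were higher there. No share over all genes with several probes stands beside these counts, so they are not read as particular to the members. The median distance between probes of one gene is larger than the difference of most members, and Ccnd2 has no second probe.

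**Figure D4:**
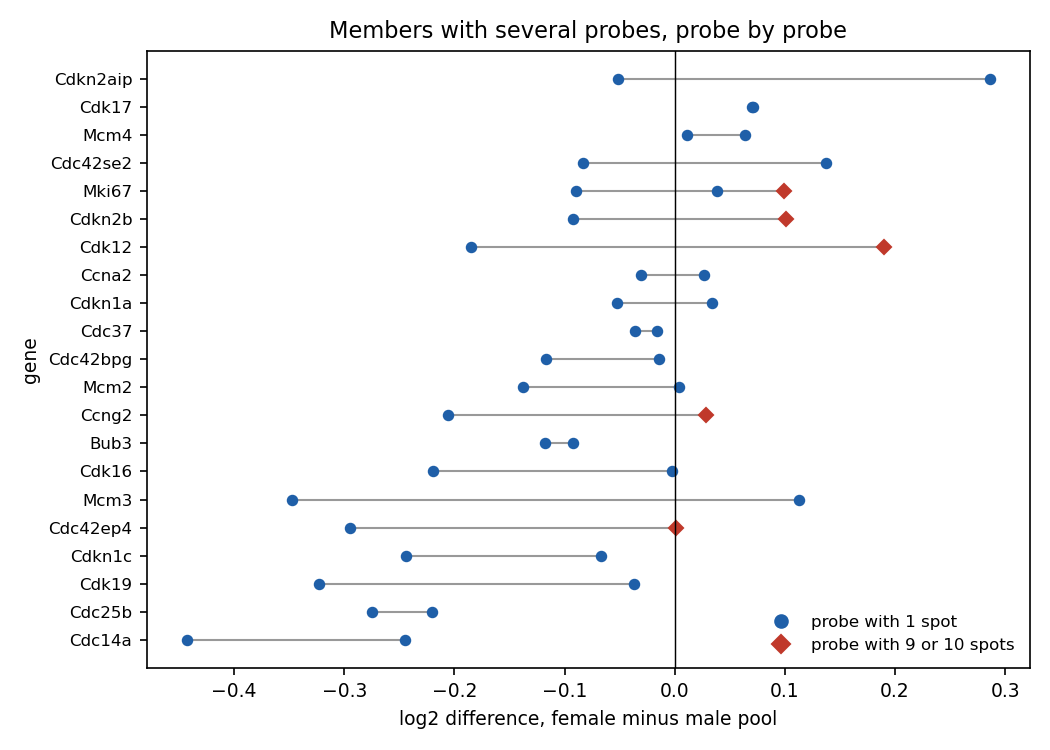
Log2 difference, female minus male pool (horizontal axis), of every probe well above background on both arrays, for the 21 members with more than 1 such probe. Circles are probes with 1 spot, diamonds are probes with 9 or 10 spots, and lines join the probes of a gene. The lines of 11 genes cross 0, and those of Cdc14a and Cdc25b lie wholly below -0.2.

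A core of classical S-phase and mitosis genes was taken from the members: Mki67, Top2a, Pcna, Cdk1, Ccna2, Ccnb1, Ccnb2, Cdc20, Aurka, Aurkb, Bub1, Bub1b and Mcm2 to Mcm7. Of these 18 genes, 17 were well above background on both arrays. Their median difference was 0.025, with 10 higher in females, against 7 in the male pool, a range from -0.16 to 0.38 and 0 past 1.5-fold in either direction, where 0.91% of all genes passed it on the female side and 1.55% on the male side. Beyond 2 spot SDs lay 1 of the 17, Top2a, a share of 5.88% where 19.2% of all genes were.

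Promoters of such genes are known for shared elements, and these were counted as a description of the members that does not use the arrays. In resting cells the DREAM complex holds many S-phase and mitosis genes down through E2F sites and the cell cycle homology region (CHR), and NF-Y binds CCAAT boxes. The search covered the 250 bases before the gene start in RefSeq (build GRCr8), on both strands, for TTTGAA as the CHR, CCAAT as the CCAAT box, and TTTCCCGC, TTTGGCGC, TTTCGCGC or TTTGCCGC as the E2F site. Of the 87 members 65 were matched by symbol. Motifs may overlap. A match is a string of letters and was not tested as a binding site.

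Core genes held these letters in a larger share than promoters in general, a count for which no test was made. A CCAAT box was found in 11 of 15 core genes with a promoter, or 73.3%, in 32 of all 65 members, or 49.2%, and in 34.4% of all 24206 promoters. The CHR letters were found in 6 of the 15, or 40%, in 9 of the 65, or 13.8%, and in 16.1% of all promoters. An E2F site was found in 5 of the 15, or 33.3%, in 8 of the 65, or 12.3%, and in 1.83% of all promoters. Among the 18 matched Cdc42 partners and other namesakes, a CCAAT box was found in 5, or 27.8%, and the CHR and E2F letters in 1 each, or 5.56%.

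Both CCAAT and CHR letters were found in the core genes Mki67, Cdk1, Ccnb2, Cdc20 and Top2a. The promoters of Mki67, Cdk1 and Ccnb2 are printed because each holds 2 CHR matches, and that of Top2a because it had the largest difference of the core. Capitals mark the letters of the motifs, on either strand. Mki67 is at chr1:199952594-199952843 on the minus strand, with 4 CCAAT boxes and 2 CHR matches, with 1 of the boxes and 1 CHR match overlapping. Cdk1 is at chr20:19265043-19265292 on the plus strand, with 3 CCAAT boxes, 2 CHR matches and 1 E2F site. Ccnb2 is at chr8:79981659-79981908 on the minus strand, with 3 CCAAT boxes and 2 CHR matches. Top2a is at chr10:84473094-84473343 on the minus strand, with 4 CCAAT boxes and 1 CHR match.
Mki67 promoter: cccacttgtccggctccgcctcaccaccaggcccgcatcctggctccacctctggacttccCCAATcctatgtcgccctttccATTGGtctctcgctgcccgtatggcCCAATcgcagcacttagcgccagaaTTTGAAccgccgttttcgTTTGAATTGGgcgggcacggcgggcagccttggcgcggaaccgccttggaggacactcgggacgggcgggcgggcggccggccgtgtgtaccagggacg
Cdk1 promoter: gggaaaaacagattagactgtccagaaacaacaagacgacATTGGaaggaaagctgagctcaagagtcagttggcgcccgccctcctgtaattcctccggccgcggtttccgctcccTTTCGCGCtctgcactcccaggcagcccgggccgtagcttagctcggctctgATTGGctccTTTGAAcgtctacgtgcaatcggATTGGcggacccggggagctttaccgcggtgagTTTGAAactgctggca
Ccnb2 promoter: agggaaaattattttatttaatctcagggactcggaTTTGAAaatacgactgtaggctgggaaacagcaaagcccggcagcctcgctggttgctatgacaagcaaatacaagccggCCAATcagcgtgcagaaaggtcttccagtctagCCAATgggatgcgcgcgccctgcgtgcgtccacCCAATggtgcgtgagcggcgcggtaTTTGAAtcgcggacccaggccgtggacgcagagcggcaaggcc
Top2a promoter: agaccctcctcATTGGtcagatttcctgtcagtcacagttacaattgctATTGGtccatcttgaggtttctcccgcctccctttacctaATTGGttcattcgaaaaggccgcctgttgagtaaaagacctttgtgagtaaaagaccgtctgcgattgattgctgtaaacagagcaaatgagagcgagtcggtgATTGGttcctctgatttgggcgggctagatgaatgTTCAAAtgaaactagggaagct
Between the pools Cdk1 differed by -0.0080, Ccnb2 by 0.082, Mki67 by -0.090 to 0.099 over its probes and Top2a by 0.38.

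Other genes of the cycle, which the name rule does not take in, also had a median near 0. The list held 80 genes with a probe, among them E2F factors, origin recognition subunits, DNA polymerases and mitotic kinesins. Of these, 75 were well above background on both arrays, and Rbl1, Cenpa, Orc1, Uhrf1 and Dnmt1 were not. Their median difference was -0.024, with 33 higher in females, against 42 in the male pool. Of the 75 genes, 17 lay beyond 2 spot SDs, a share of 22.7% where 19.2% of all genes did, and 44% lay within 1 spot SD, where 52.2% of all genes did. At 2-fold 0 were higher in either pool, where 0.111% of all genes were on the female side and 0.412% on the male side. At 1.5-fold 1 was higher in the female pool, where 0.91% of all genes were, and 0 in the male pool, where 1.55% were. That one was Kif11, a motor of the mitotic spindle, with 24.4 in females against 16.5 in males, a difference of 0.59 with a spot SD of 0.33 that came to 0.084 with normexp.

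On the male side of the same list, Pole2, a subunit of a replicative DNA polymerase, had 18.5 in females against 27.6 in males. Its difference was -0.55 with a spot SD of 0.33, and -0.15 with normexp. Pole, the catalytic subunit, gave -0.34 with the same spot SD. Cks2, a small protein that binds CDKs, gave -0.37 and Rrm1, which makes DNA building blocks, -0.32, each with a spot SD of 0.15. Kif23, a kinesin of cell separation, had 224 in females against 293 in males, a difference of -0.37 with a spot SD of 0.090.

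Markers of several cell types in the dissected tissue differed between the pools by amounts as large as those of the members. The 4 neuron markers with a probe had a median of -0.0037, with 2 higher in females, against 2 in the male pool. They ran from -0.16 to 0.24. All 5 oligodendrocyte precursor markers were higher in the female pool, from 0.093 for Cspg4 to 0.28 for Olig1, with a summed signal of 25632 in females against 22804 in males. All 5 astrocyte markers were lower in the female pool, from -0.32 to -0.045, with a summed signal of 44179 in females against 50762 in males. The 5 meningeal and fibroblast markers were lower in the female pool, from -0.90 to -0.095, with a median of -0.26. Their summed signal was 21070.1 in females against 36950.0 in males, most of it from Col1a2 with 16663 in females against 31761 in males, and the other 4 summed to 4407 in females against 5189 in males. All 5 choroid plexus markers were lower too, with a summed signal of 46881 in females against 55412 in males, and so were the 4 red cell markers well above background on both arrays, with 7457 in females against 11258 in males. All 5 endothelial markers were higher in the female pool, from 0.041 to 0.26, and 4 of 5 microglial markers were lower there, the list running from -0.28 to 0.13. The 4 white cell markers well above background on both arrays were lower in the female pool, from -0.76 for S100a8 to -0.081 for Ptprc, with a median of -0.61. Of the markers of mature oligodendrocytes, Mog gave 0.47, Mobp 0.36, Mag 0.27 and Mbp -0.0014. Their part in the differences of Ccnd2, Cdkn1b and the other members was not tested.

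The neuroblast and progenitor markers Dcx, Sox11, Nes, Sox2 and Neurod1 were well above background on both arrays and ran from -0.11 to 0.20. Of all named genes 83.1% were well above background too, so that call alone says little about which cells were present. The summed signal was 15599 in females against 15444 in males, most of it from Sox2 with 12558 in females against 12355 in males. Markers of the dorsal vagal complex were looked at for the tissue label, with the same limit. Of these, Th, Dbh, Tlx3, Lmx1b, Prlh and Calcr were well above background in both pools. Their differences ran from -0.070 for Tlx3 to 0.62 for Prlh.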

How the data were processed

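Total RNA of the 5 rats of each sex was pooled, and cRNA with the dye Cy3 was made from 150 ng, per the labels' protocols. The deposited intensity values are Agilent Feature Extraction signals, with background and spatial trend already taken off in every array and no scaling across arrays, per the file headers, which name version 10.7.3.1 and rn4 (the submitters' processing notes give 9.1). Flags for background and outliers are other columns of the deposited files, per the file headers. The deposited value table holds the same intensity values, on a linear scale and not centred, times 1 factor per array of unstated origin (column medians 27.3 female, 28.0 male).

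Log2 processed signals were taken relative to their array's 75th percentile over 42877 rat spots (3380.2 female, 3441 male). Well above background were 87.9% of female and 85.5% of male spots. Outlier flags removed 430 spots. Spots of a probe were averaged, and a gene's difference is the median over its probes well above background on both arrays. Brightness classes for the spot SD were cut at -6, -4 and -2 log2 below the 75th percentile, and having 1 array per sex limits the precision. Genes are called by the array's symbols, and the RefSeq accession gave the same symbol for 81 of 87 members. A name equal to an accession or probe ID was not counted as a gene.

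Members, lists, roles and alternatives were chosen with earlier results of these data known. Genes named with values are the core genes, cyclins, main CDKs and inhibitors, the 10 largest differences, the brightest and dimmest members, and the 6 largest differences of the other list. Cdc16, Cdc23, Cdc26, Cdc27, Cdc45, Cdc25a, Cdc25c, Cdc42ep4, Cdk12, Cdk19, Bub3, the G cyclins, Mcm10's second probe and the genes with probes of one sign were added after their values were seen. The steps, in Python 3.11.15 and limma 3.58.1 (normexp, offset 50), were tested on simulated data. Alternatives were the scaling (median, quantile, spike-ins, loess of span 0.3), normexp, the value table, filters on dim probes, outlier spots kept, the brightest probe, thresholds of 1.5-fold and 3-fold, and 4 of 20 bands of array rows left out.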

Additional observations from a re-analysis of the deposited data

How the results depend on the processing

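Scaling by the spike-in probes moved every gene towards the female pool: the median over all genes came to 0.66, the median of the members to 0.664, that of the core genes to 0.698 and that of the other cell cycle and replication genes to 0.649. With it 1 member, Top2a, passed 2-fold on the female side, and Ccnd2 stood at -0.0066, so all differences here are relative to the 75th percentile. In the other settings run, thresholds aside, the counts of members past 2-fold were 0 in both directions. A threshold of 1.5-fold gave 1 member higher in the male pool, Ccnd2. With only the brighter probes, those above the median, the other list had a median of 0.0472. Ccnd2 ran from -0.68 to -0.55 without the spike-in scaling, with -0.55 under normexp. Without a background filter Mcm10 came to -0.035 in place of 0.32. With the brightest probe Mcm3 was -0.35 and Cdkn1c -0.067. Leaving out the 4 bands removed the only spot of Top2a, and 71 members were left. Members well above background on both arrays were 85 with outlier spots kept and 85 with the value table. With the software's call of a positive and significant signal in place of well above background they were 87, Bub1b and Cdc25c included. No share of all genes is given for that call, so the 87 says nothing particular to the members. The 71 without the 4 bands is no change in detection alone, since the bands held all spots of 13 members. No paired analysis was possible because each sex has 1 array. Dim probes and single spots limit what can be seen.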
